A study of Rattus norvegicus with 3 samples.

Results

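Cyclins, cyclin-dependent kinases (CDKs), their inhibitors and the genes of DNA replication were examined in rat motor cortex. The members were the genes whose symbol matched a naming rule for CDKs, the Cdk5 activators, cyclins, Cip/Kip and INK4 inhibitors, minichromosome maintenance (Mcm) proteins, E2F factors, Pcna, Mki67 and the type II topoisomerases. The Cip/Kip gene Cdkn1c was left out by the rule. The rule took 67 of the 30957 genes listed. No measured value entered it, but the members were chosen with earlier results of these data known. The tissue came from 3 untreated male Sprague-Dawley rats, an outbred stock, with 1 mRNA library per animal. Animals 32, 39 and 68 make up the group labelled normal; the labels add a time of 8 weeks, and no other group was analysed here. Values are FPKM, fragments counted per gene and scaled to gene length and library size, so levels of different genes compare per length.

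CDKs are kinases that need a partner protein, usually a cyclin, to act. Cdk1, Cdk2, Cdk4 and Cdk6 drive dividing cells from growth through replication to mitosis, and the Cip/Kip and INK4 proteins hold them back. Other CDKs act on RNA polymerase and splicing in every cell, and Cdk5, activated by Cdk5r1 and Cdk5r2 in place of a cyclin, works in postmitotic neurons. In adult cortex neurons do not divide, and oligodendrocyte precursors are the main cycling cells of the parenchyma.

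All 12 neuronal markers measured stood at 1 FPKM or more in every animal, as did all 12 astrocyte and all 12 oligodendrocyte markers. Animal 68 stood apart: summed choroid plexus markers were 52.8, 100.3 and 1082 FPKM in animals 32, 39 and 68, with 11 of 11 highest in animal 68. Enpp2 held most of each sum, at 49.3, 71.9 and 632.9 FPKM, and the median of the 11 markers was 0.13, 2.95 and 51.0 FPKM. Summed striatal markers were 163, 139 and 282 FPKM. The log2 values of animal 68 correlated across genes with those of animal 32 at a Pearson r of 0.924 and with those of animal 39 at 0.955. Between animals 32 and 39 the r was 0.979. Depth inferred from short loci was 16.6, 15.5 and 17.7 fragments per kilobase at 1 FPKM. An animal, its dissection and its library cannot be told apart here.

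Members covered a wide range of levels. At least 1 FPKM in every animal was reached by 50 of 67 members, where 40.7% of all listed genes met this level. Against a level of 1 FPKM, 50 of the 63 members with a value above 0 in every library were above it and 7 below it (limma on log2(FPKM + 0.1), adjusted p under 0.05). Among all 16413 genes tested the same calls were made for 74.5% and 12.9%, so the members' shares of 79.4% and 11.1% lie near the background. The values are therefore described by role. Ccnj was listed at 0 in every library, as were 38.9% of all genes, and Ccnb3, E2f8 and Cdkn2a were at 0 in at least 1 library and not tested. Leaving out animal 39 ended 6 of the 50 calls above 1 FPKM (Ccnb1, Ccnf, Cdk2, Mcm2, Mcm6 and Mcm8). Leaving out animal 32 ended 4 of these 6 (Ccnb1, Ccnf, Mcm6 and Mcm8). The share of all genes tested above 1 FPKM fell too, from 74.5% to 69.4% without animal 39 and 72.5% without animal 32. Without animal 68 it was 72.9%. Each such fit rests on fewer animals, so a lost call need not come from the animal left out.

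**Figure D1:**
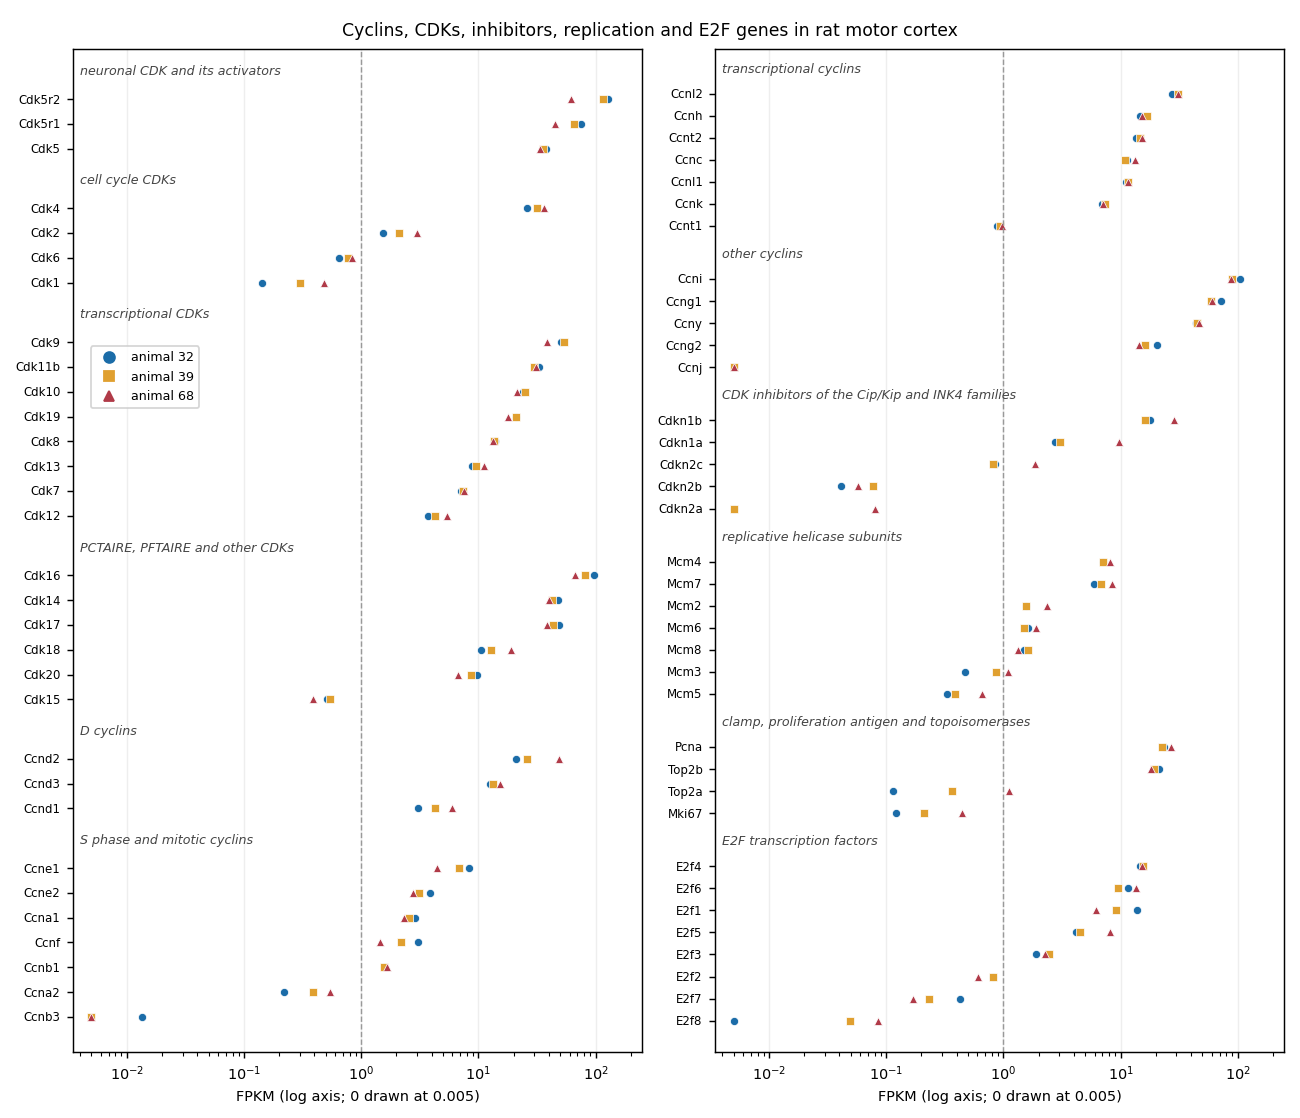
FPKM of the 67 members in each animal on a log axis, grouped by role and sorted by mean within a role; values of 0 are drawn at 0.005 and the dashed line marks 1 FPKM. Cdk5r2, Ccni and Cdk16 lie farthest right in their classes, while Cdk1, Mki67, Ccna2 and E2f7 lie left of the line in all 3 animals.

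The neuronal kinase Cdk5 and its activators were among the most abundant members. Cdk5 (chromosome 4, 7282948 to 7288383, Rnor_6.0) stood at 37.9, 35.7 and 33.5 FPKM in animals 32, 39 and 68. Its level varied little, with an SD of 0.09 on the log2 scale. Cdk5r1, which encodes its first known activator, measured 75.8, 65.8 and 44.7 FPKM, and Cdk5r2, which encodes a related activator, 127.9, 114.9 and 61.5 FPKM. Cdk5r2 was the highest of all 67 members, at rank 598 among all listed genes by mean. Both activators were lowest in animal 68, and Cdk5r2 differed between animals by 2.08-fold (here and below, a range is the highest over the lowest FPKM + 0.1). Cdk5r2 exceeded Cdk5r1 by 1.59-fold and Cdk5r1 exceeded Cdk5 by 1.70-fold, each in 3 of 3 animals. The loci listed for Cdk5r1 (chromosome 10, 67862054 to 67863255) and Cdk5r2 (chromosome 9, 82120059 to 82121527) are short, and how completely they cover the transcripts was not examined.

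Fewer neurons and less RNA per neuron cannot be told apart in dissected tissue. Beside the activators, the summed level of the 12 neuronal markers was 4952, 4392 and 3633 FPKM, with 10 of 12 lowest in animal 68 and none at 0. The part of tissue composition in the lower activator levels was not tested.

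Among the cell cycle kinases, Cdk4 stood alone at a level close to that of Cdk5. Cdk4, the partner of D cyclins that phosphorylates the retinoblastoma protein, measured 26.2, 31.8 and 36.3 FPKM. Its close relative Cdk6 measured 0.65, 0.78 and 0.83 FPKM, so Cdk4 exceeded it 36.9-fold, with a log2 ratio of 5.20 ± 0.07 (SD, n = 3). The Cdk6 level did not differ from 1 FPKM by the test (limma, adjusted p = 0.121). Cdk2, the kinase of DNA replication, measured 1.54, 2.12 and 2.99 FPKM, and Cdk1, the mitotic kinase, 0.14, 0.30 and 0.48 FPKM. Cdk1 was below 1 FPKM (log2 difference -1.52, SE 0.30, adjusted p = 0.00619, limma). All 4 kinases had the same order, lowest in animal 32 and highest in animal 68. Cdk5 exceeded Cdk2 by 15.9-fold and Cdk1 by 93.1-fold in 3 of 3 animals. Between Cdk5 and Cdk4 the direction differed: the log2 ratio was 0.53, 0.16 and -0.12, so no order could be given. The Cdk4 locus shares 168 bases with Tspan31 on the other strand (19.3 FPKM), and the kit's strandedness is not given in the sources used here.

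**Figure D2:**
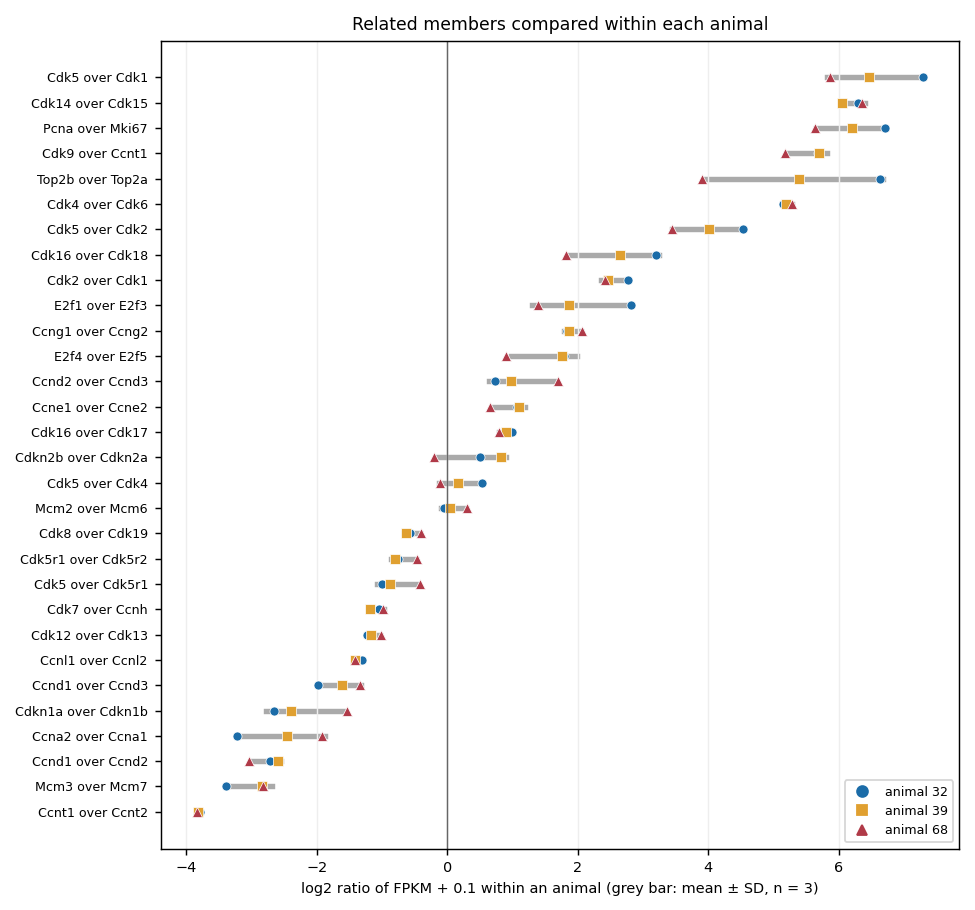
The log2 ratio of related members within each animal, for 30 pairs; points are animals and the grey bar spans the mean ± SD. Top2b over Top2a has the widest spread, and 3 pairs (Cdk5 over Cdk4, Cdkn2b over Cdkn2a and Mcm2 over Mcm6) have points on both sides of 0.

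These ratios were taken for 30 pairs of members. In 27 the direction was the same in every animal, and in 22 of those the mean ratio was at least 2-fold. Ratios use FPKM + 0.1, which understates those of low genes. No p is given for a pair, since over 3 animals the smallest p of an exact sign-flip test is 0.25.

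Kinases of transcription were led by Cdk9. This elongation kinase that releases paused RNA polymerase measured 50.3, 54.2 and 38.4 FPKM. Cdk11b, a kinase linked to splicing, measured 33.2, 29.9 and 31.3 FPKM, and Cdk10 24.1, 25.1 and 21.3 FPKM. The Mediator kinases Cdk19 (20.9, 21.1 and 17.8 FPKM) and Cdk8 (13.9, 13.5 and 13.5 FPKM) differed by 1.45-fold, with Cdk19 higher in 3 of 3 animals. Cdk8 had the smallest spread of the 51 members with a mean of at least 1 FPKM, a log2 SD of 0.03. Cdk13 (8.82, 9.64 and 11.2 FPKM), which acts with cyclin K on elongating polymerase, exceeded its relative Cdk12 (3.71, 4.23 and 5.45 FPKM) by 2.20-fold. All 8 kinases of this class were above 1 FPKM by the test, beside 74.5% of all genes tested.

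Their cyclins showed 1 exception. Cdk9 works with cyclin T1 or T2, and Ccnt1 was listed at 0.88, 0.94 and 0.97 FPKM, not different from 1 FPKM (limma, adjusted p = 0.626). Ccnt2 measured 13.5, 14.6 and 15.2 FPKM, which is 14.1-fold above Ccnt1, with a log2 ratio that varied by only 0.02 (SD, n = 3). Cdk9 itself exceeded Ccnt1 by 45.9-fold. Ccnl2 (27.6, 30.9 and 31.2 FPKM) and Ccnl1 (11.1, 11.6 and 11.6 FPKM), cyclins of the splicing kinases, differed by 2.60-fold. Ccnh (14.7, 16.9 and 15.2 FPKM), the partner of Cdk7 in general transcription factor TFIIH, exceeded Cdk7 (7.10, 7.42 and 7.61 FPKM) by 2.10-fold. The Mediator cyclin Ccnc measured 11.3, 10.9 and 13.4 FPKM. In this class 6 of 7 members were above 1 FPKM by the limma test, beside 74.5% of all genes tested. None of the 7 was below by that test, adjusted or unadjusted.

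Kinases named for the PCTAIRE and PFTAIRE motifs in their cyclin-binding helix were led by Cdk16. Cdk16, a PCTAIRE kinase of postmitotic cells, measured 96.4, 81.3 and 66.97 FPKM. Cdk17 measured 48.3, 43.7 and 38.5 FPKM, and Cdk14, a PFTAIRE kinase, 47.8, 42.7 and 40.3 FPKM. All of these were highest in animal 32 and lowest in animal 68, as was Cdk20 (9.82, 8.65 and 6.77 FPKM). Cdk18, the third PCTAIRE kinase, had the opposite order at 10.4, 12.9 and 18.9 FPKM. The log2 ratio of Cdk16 over Cdk18 therefore was 3.19 in animal 32 and 1.82 in animal 68, while that of Cdk16 over Cdk17 was between 0.80 and 0.99. Oligodendrocyte markers summed to 2246, 3191 and 5902 FPKM in the same animals, with 12 of 12 highest in animal 68. Their part in the order of Cdk18 was not tested. Cdk15, the other PFTAIRE kinase, was below 1 FPKM (0.51, 0.55 and 0.39 FPKM; limma, adjusted p = 0.00845), and Cdk14 exceeded it 75.2-fold.

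Atypical cyclins included the 3 highest cyclins by mean. Ccni, known from postmitotic tissues, measured 104.8, 89.8 and 87.6 FPKM, and Ccng1, a target of p53, 72.5, 59.4 and 60.7 FPKM. Ccny, the membrane-bound partner of Cdk14 and Cdk16, measured 43.7, 45.3 and 47.1 FPKM. Ccng2 measured 20.3, 16.2 and 14.5 FPKM and lay 3.78-fold under Ccng1. These 4 genes stood above every S phase and mitotic cyclin in every animal.

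D cyclins, the sensors of growth signals that activate Cdk4 and Cdk6, were led by Ccnd2. Its values were 20.8, 26.1 and 49.2 FPKM, a range of 2.37-fold. Ccnd3 measured 12.5, 13.2 and 15.2 FPKM, and Ccnd1 3.07, 4.25 and 5.92 FPKM. All 3 were lowest in animal 32 and highest in animal 68, but by different amounts. Ccnd2 exceeded Ccnd1 by 6.88-fold in 3 of 3 animals, and it exceeded Ccnd3 by 2.19-fold, with log2 ratios of 0.73, 0.98 and 1.69. Ccnd3 exceeded Ccnd1 by 3.14-fold.

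The S phase and mitotic cyclins were lower than Ccni, Ccng1, Ccny and Ccng2, yet not in the order of their roles. By the limma test 5 of the 7 genes were above 1 FPKM and 1 was below, with Ccnb3 not tested. Among all genes tested 74.5% were above and 12.9% below. Ccne1, the cyclin that starts replication with Cdk2, was highest in the class at 8.29, 6.85 and 4.43 FPKM. Its relative Ccne2 measured 3.89, 3.14 and 2.79 FPKM. Ccna1, best known from the germ line, measured 2.89, 2.57 and 2.34 FPKM, and Ccnf, a subunit of a ubiquitin ligase that activates no CDK, 3.08, 2.21 and 1.44 FPKM. All 4 were highest in animal 32 and lowest in animal 68. Ccna2, the A cyclin of dividing cells, had the opposite order at 0.22, 0.39 and 0.55 FPKM and was below 1 FPKM (limma, adjusted p = 0.00826). Ccna1 thus exceeded Ccna2 by 5.78-fold, with log2 ratios of Ccna2 over Ccna1 of -3.22, -2.45 and -1.92. The Ccna2 locus (chromosome 2, 123275881 to 123282214) lies over all of its 6334 bases within that of Exosc9 on the other strand, which measured 15.9 FPKM, so fragments of the pair may not be separable. A smaller overlap of 521 bases joins Ccne2 and Ints8 (7.36 FPKM). Ccnb1, the mitotic partner of Cdk1, measured 1.58, 1.57 and 1.66 FPKM and showed no such order.

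Inhibitors, here without Cdkn1c, were dominated by Cdkn1b. The Cdkn1b product, a Cip/Kip protein that keeps cells out of cycle, measured 17.8, 16.3 and 28.5 FPKM. Cdkn1a, a target of p53, measured 2.74, 3.03 and 9.78 FPKM, and its 3.47-fold range was the widest of the members with a mean of at least 1 FPKM. Animals 32 and 39 lay close together, and animal 68 stood above both. Cdkn1b exceeded Cdkn1a by 4.57-fold in 3 of 3 animals. Cdkn2c of the INK4 family, which binds Cdk4 and Cdk6, measured 0.84, 0.81 and 1.86 FPKM and did not differ from 1 FPKM by the test (limma, adjusted p = 0.727). Cdkn2b was below it at 0.04, 0.08 and 0.06 FPKM (limma, adjusted p = 7.14e-05). Cdkn2a, a marker of senescent cells, was listed at 0 in animals 32 and 39 and at 0.081 FPKM in animal 68.

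The clamp and topoisomerase genes differed widely in level. Pcna, the sliding clamp of DNA polymerases that also serves repair, measured 23.3, 22.7 and 26.8 FPKM. Mki67, a marker of cycling cells, measured 0.12, 0.21 and 0.44 FPKM and was below 1 FPKM (log2 difference -1.72, SE 0.31, limma, adjusted p = 0.00407). Pcna exceeded Mki67 by 72.8-fold. Top2b, the topoisomerase of postmitotic cells, measured 21.2, 19.5 and 18.2 FPKM, and Top2a, that of dividing cells, 0.11, 0.37 and 1.12 FPKM. The log2 ratio of Top2b over Top2a was 6.63, 5.39 and 3.91, a fold of 39.6 on average. On FPKM + 0.1, Top2a had the widest range of all 67 members, 5.68-fold, lowest in animal 32 and highest in animal 68; adding 0.1 understates the ratio of so low a gene. Its level did not pass the test against 1 FPKM (limma, adjusted p = 0.0873), but without animal 68 it did (adjusted p = 0.00312).

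Subunits of the Mcm helicase, which unwinds DNA at the fork as a ring of different subunits (Mcm2 to Mcm7), were unequal. Mcm4 measured 7.09, 7.05 and 8.15 FPKM and Mcm7 5.96, 6.80 and 8.39 FPKM. Mcm2 (1.56, 1.55 and 2.38 FPKM) and Mcm6 (1.62, 1.51 and 1.90 FPKM) could not be ordered, since the sign of their ratio differed between animals. Mcm3 measured 0.47, 0.86 and 1.10 FPKM and Mcm5 0.33, 0.39 and 0.65 FPKM. Mcm7 exceeded Mcm3 by 8.12-fold in 3 of 3 animals. Mcm8, a relative that acts in recombination outside the ring, measured 1.498, 1.62 and 1.33 FPKM. By the limma test 5 of these 7 genes were above 1 FPKM, beside 74.5% of all genes tested. Only Mcm5 was below (limma, adjusted p = 0.0121), beside 12.9% of all genes tested. The Mcm5 call was lost without animal 39 (limma, adjusted p = 0.0738).

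E2F factors, which switch the replication genes on or off with the retinoblastoma family, showed another inequality. The repressor-type members E2f4 (14.7, 15.6 and 15.1 FPKM) and E2f6 (11.6, 9.58 and 13.5 FPKM) were highest by mean. The activator E2f1 followed at 13.9, 9.16 and 6.14 FPKM, a range of 2.24-fold with the lowest value in animal 68. E2f5 measured 4.17, 4.53 and 8.10 FPKM, highest in animal 68, and E2f3 1.89, 2.45 and 2.28 FPKM. E2f4 exceeded E2f5 by 2.79-fold and E2f1 exceeded E2f3 by 4.07-fold, each in 3 of 3 animals. The atypical repressor E2f7 (0.43, 0.23 and 0.17 FPKM) was below 1 FPKM (limma, adjusted p = 0.00297), and E2f2 did not differ from it (limma, adjusted p = 0.127).

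The promoters of 4 low members are printed because these genes share 1 order over the animals, lowest in 32 and highest in 68, and because they hold words known from cell cycle promoters. Both traits were conditions of the choice, so these genes show no link between order and words. Other members with the same order were not printed. RefSeq windows (build GRCr8) were available for 53 of the 67 members. Each line gives the 250 bases before the annotated start, 5′ to 3′ on the gene's strand. Capitals mark CCAAT, the cell cycle homology element TTTGAA and the E2F-type words TTTGGCGC, TTTGCCGC, TTTCGCGC and TTTCCCGC, on either strand, overlaps included.
Mki67, chr1:199952594-199952843, minus strand: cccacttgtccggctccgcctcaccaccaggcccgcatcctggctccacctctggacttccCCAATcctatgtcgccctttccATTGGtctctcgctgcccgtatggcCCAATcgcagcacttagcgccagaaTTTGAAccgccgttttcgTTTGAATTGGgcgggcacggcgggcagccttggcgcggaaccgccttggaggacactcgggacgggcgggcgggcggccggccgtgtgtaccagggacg
Top2a, chr10:84473094-84473343, minus strand: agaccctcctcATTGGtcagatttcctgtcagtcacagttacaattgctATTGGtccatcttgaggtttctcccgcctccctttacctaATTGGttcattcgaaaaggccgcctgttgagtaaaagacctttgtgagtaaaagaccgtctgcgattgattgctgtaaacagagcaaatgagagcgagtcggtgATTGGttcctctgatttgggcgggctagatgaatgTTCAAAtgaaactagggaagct
Cdk1, chr20:19265043-19265292, plus strand: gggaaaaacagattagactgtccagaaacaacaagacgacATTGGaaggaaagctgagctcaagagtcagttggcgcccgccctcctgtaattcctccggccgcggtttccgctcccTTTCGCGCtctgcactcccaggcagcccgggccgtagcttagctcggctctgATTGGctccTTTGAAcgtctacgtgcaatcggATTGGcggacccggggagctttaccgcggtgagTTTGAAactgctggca
Mcm5, chr19:13488563-13488812, plus strand: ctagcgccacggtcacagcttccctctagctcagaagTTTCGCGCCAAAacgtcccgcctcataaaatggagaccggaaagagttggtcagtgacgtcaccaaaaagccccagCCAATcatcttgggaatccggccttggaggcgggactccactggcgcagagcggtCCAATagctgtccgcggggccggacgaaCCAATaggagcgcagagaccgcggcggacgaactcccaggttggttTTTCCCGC

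The windows of Mki67 and Top2a each held 4 CCAAT words with 2 and 1 TTTGAA, and that of Cdk1 held 3 CCAAT, 2 TTTGAA and 1 E2F-type word. The window of Mcm5 held 3 E2F-type words, of which a pair overlaps, and 3 CCAAT words, with no TTTGAA. Over the 57 windows of the 53 members, 12.3% held an E2F-type word, 15.8% TTTGAA and 54.4% CCAAT. Among all 33469 windows of the same length the shares were 1.73%, 16.2% and 34.0%. The Mcm genes held most E2F-type words, with 5 of the 6 Mcm windows. The other 2 E2F-type matches were in Cdk1 and E2f3. Every other class had none in its available windows, S phase and mitotic cyclins (windows for 5 of 7 genes) included. Only 1 of 3 D cyclins and 3 of 8 E2F genes had a window, so most of these genes were not examined. A match is a description of these letters and no evidence of binding, and no test was made.

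Differences between the animals were mostly small. Of the 51 members with a mean of at least 1 FPKM, 6 had a range above 2-fold, beside 14.5% of the 13378 genes past the same filter. These 6 were Cdkn1a, Ccnd2 and Cdkn2c, highest in animal 68, and E2f1, Cdk5r2 and Ccnf, lowest in it. Among all genes past the filter 9.97% had such a range with animal 68 highest and 3.48% with it lowest. The count was 0 without animal 68, where 2.75% of all genes passed, and 2 without animal 32, where 6.52% did. The members' median SD was 0.16 on the log2 scale, against 0.20 for all genes past the filter. From animal 32 through 39 to 68, 16 of the 51 members stood in ascending and 16 in descending order (31.4% each), beside 32.9% and 21.8% of the 13368 genes that pass the filter and are above 0 in every library.

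**Figure D3:**
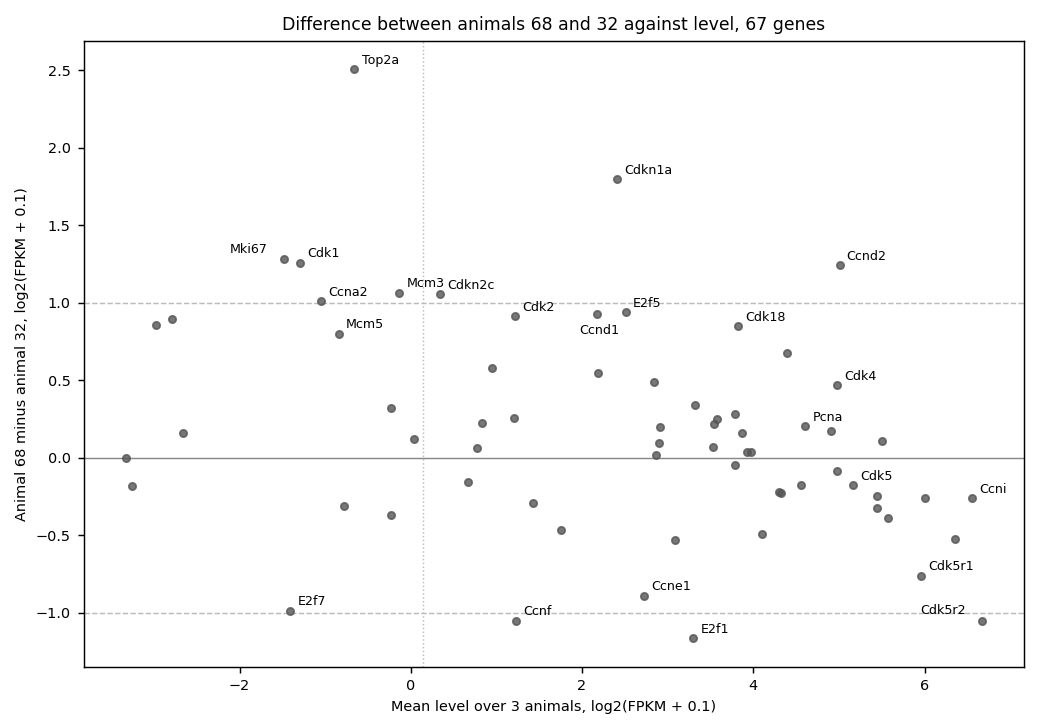
Difference of each member between animals 68 and 32 on the log2(FPKM + 0.1) scale against its mean level; dashed lines mark a 2-fold difference and the dotted line 1 FPKM. Top2a and Cdkn1a lie highest, and E2f1, Cdk5r2 and Ccnf lie below the lower dashed line.

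Markers of several cell types differed across the same animals. Summed oligodendrocyte precursor markers were 113, 167 and 256 FPKM, with 10 of 12 highest in animal 68 and Neu4 listed at 0 throughout. The defining precursor gene Pdgfra measured 10.03, 14.2 and 23.3 FPKM. Summed microglial markers were 128, 166 and 235 FPKM, with 12 of 12 highest in animal 68. Astrocyte markers summed to 1440, 1533 and 2524 FPKM, again with 12 of 12 highest there. Ependymal markers summed to 28.4, 45.5 and 104.3 FPKM, with 10 of 11 highest in that animal. Endothelial markers differed little, at 158, 144 and 145 FPKM. Of the neuroblast and progenitor markers 6 of 10 were highest in animal 68, with sums of 305, 276 and 227 FPKM. Stmn1, which mature neurons also express, holds most of these sums (254.8, 217.3 and 154.6 FPKM), and the other 9 markers sum to 50.5, 58.4 and 72.4 FPKM, in the opposite order. What part these cell types had in the order of Top2a, Mki67, Cdk1, Ccnd2 or Cdkn1a was not tested.

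**Figure D4:**
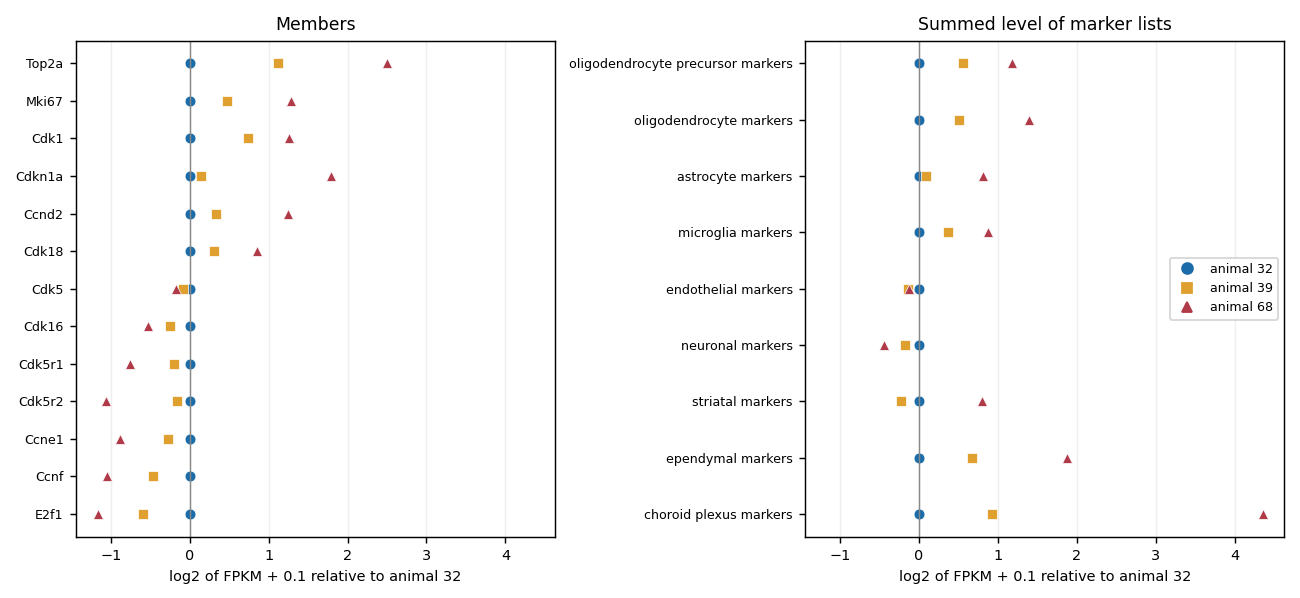
Levels relative to animal 32 on a log2 scale, for 13 members (left) and the summed level of 9 marker lists (right). Top2a, Mki67, Cdk1 and Ccnd2 have the ascending order of the precursor, oligodendrocyte, astrocyte, microglial, ependymal and choroid plexus sums, while Cdk16, Cdk5r1, Cdk5r2, Ccne1, Ccnf and E2f1 have that of the neuronal sum.

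Levels of other pathway genes, from lists that exclude the members, were higher among replication and checkpoint genes than among mitotic ones by median. Of 44 initiation and fork factors, 28 were above 1 FPKM and 9 below by the limma test, with 1 not tested. Among all genes tested the shares were 74.5% above and 12.9% below. Of the 44 factors, 32 were highest in animal 68. The initiation and fork list was led by the single-strand binding protein Rpa1 (14.2, 14.5 and 20.5 FPKM), the origin recognition subunit Orc4 (15.9, 16.0 and 17.0 FPKM) and the clamp loader Rfc1 (11.6, 11.9 and 13.6 FPKM). Of 30 genes of the mitotic machinery, 8 were above and 13 below, and 23 were highest in animal 68. The highest of these were the checkpoint protein Bub3 (8.09, 8.84 and 9.56 FPKM), the cytokinesis scaffold Anln (1.96, 4.37 and 11.5 FPKM) and Incenp (4.54, 4.78 and 3.42 FPKM). Among 29 checkpoint, retinoblastoma pathway and cyclin destruction genes, 22 were above and 1 below, and 14 were highest in animal 68. Here the anaphase-promoting complex subunit Anapc2 (37.0, 33.4 and 32.8 FPKM), the ubiquitin ligase subunit Fbxw7 (45.7, 30.2 and 19.8 FPKM) and Btrc (24.9, 23.9 and 23.5 FPKM) were highest. No share of all genes highest in animal 68 was set beside the counts for these lists. Whether any list exceeds that background was not tested. In animals 32, 39 and 68 the median level was 2.57, 2.64 and 2.95 FPKM for the initiation and fork list, 0.51, 0.77 and 0.94 FPKM for the mitotic list and 6.14, 6.32 and 7.16 FPKM for the checkpoint list.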

How the data were processed

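Per the labels, the authors counted fragments per gene, normalized them and computed the deposited FPKM with a Perl script. The submitters' processing notes name HISAT2 2.0.4, StringTie 1.3.0 and Rnor_6.0, with no role given. Strandedness is not given in the sources used here. All 3 tables list the same 30957 genes.

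Levels were tested in limma 3.58.1 (R 4.3.3) by a moderated test over animals of log2(FPKM + 0.1) against log2(1 + 0.1), two-sided, with a mean-dependent prior (2.64 degrees of freedom) and Benjamini-Hochberg adjustment over the 16413 genes above 0 in all 3 libraries (threshold 0.05). P-values concern the spread of these 3 animals only. On simulated data of 16413 genes the test recovered 83% of genes set 1 log2 unit above the level, 75% of those 1 below and 98% of those 2 away, and called 3.9% of genes set at the level. Ranges, ratios and lists are descriptions. Depth was inferred as about 16550263, 15460969 and 17670967 fragments from loci of up to 400 bases, where 85.0, 86.4 and 82.0% of values were within 0.02 of whole fragments. It covers counting error only.

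Members and lists were chosen with earlier results of these data known. Values by animal are given for up to 4 highest members per role, members of pairs at 2-fold or without a common sign, and the 8 widest ranges, and other members' values were added. List genes are the 3 highest by mean. Of 32 pairs set, 30 were measured. The genes printed as promoters were chosen after their values were seen. Alternatives changed pseudocount, filter, level, prior and scaling, and left out each animal. Python 3.11.15, pandas 2.3.3 and numpy 2.4.6 did the rest.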

Additional observations from a re-analysis of the deposited data

How the results depend on the processing

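Over all alternatives run, 64.4 to 83.8% of all genes tested were above the level, and 69.4 to 72.9% with 1 animal left out. The 50 members above 1 FPKM stayed within 1.5 times under every alternative run (41 to 52, and 44 to 50 with 1 animal left out). Those below numbered 3 against a level of 0.5 FPKM, 13 against 2 FPKM and 0 (limma, 0 at an unadjusted p under 0.05) with a filter of mean 0.5 FPKM, which removes all 7; over all genes tested the shares moved likewise, to 7.05, 21.0 and 0.309%. Leaving out 1 animal gave 6 to 8 members below, beside 11.9 to 15.9% of all genes tested. Members with a range above 2-fold numbered 11 of 67 with no filter, beside 14.9% of all genes. With 1 animal left out they numbered 0 to 6, beside 2.75 to 13.1% of all genes past the filter. Against 2 FPKM the log2 difference turned to -0.30 for Ccnb1, -0.82 for Cdkn2c, -0.15 for Mcm2, -0.25 for Mcm6 and -0.41 for Mcm8, and against 0.5 FPKM to 0.78 for Ccnt1; a moved level makes these by construction. None of the 27 pairs with 1 direction in every animal turned, and of the other 3 the mean log2 ratio of Mcm2 over Mcm6 turned without animal 68 (from 0.10 to -0.0079), while 18 of 150 recomputed ratios moved by more than their SD. The sign of the difference between animals 68 and 32 turned under some scaling for Cdk8, Ccnb1, Ccnh, Ccnk, Ccnl1 and E2f4, all with differences under 0.07 before. Equal totals moved the median of all genes between these animals to 0.14. No paired analysis was possible because all animals form 1 group. Depth limits values far below 1 FPKM, such as those of Cdkn2a, Cdkn2b, Ccnb3 and E2f8.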
